A study of Mus musculus with 6 samples.

Results

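Complement is described here by 32 genes of its components, regulators and receptors, measured in bulk RNA sequencing of mouse liver. The genes were taken from a fixed list of symbols, all 32 were found among the 35976 symbols of the count table, and all 32 passed the filter on low counts that left 14954 genes for testing. The tested group was made up of 3 libraries of genotype IRE1PKO and was set against 3 libraries of genotype IRE1fl. Mice of both groups were male, carried the treatment label HFD, read here as high-fat diet, and had fasted for 16 hours before 4 hours of feeding. IRE1, encoded by Ern1, is an endoplasmic reticulum stress sensor. What the P of PKO stands for is not in the labels, and neither the driver of the deletion nor the age of the mice is given in the sources used here. The title of the series links the pituitary with the liver, in obesity. Nothing in the labels ties the libraries to separate animals, so p-values measure the spread between libraries.

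Complement is a cascade of plasma proteins, made for the most part by hepatocytes, that tags and lyses foreign or damaged cells. The classical, lectin and alternative pathways each build an enzyme that cleaves C3, and cleavage of C5 then starts the terminal pathway, in which C5b, C6, C7, C8 and C9 join into a membrane pore. Soluble and membrane-bound regulators hold the cascade in check, and the small fragments of C3 and C5 signal through receptors on myeloid cells.

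Total counts ran from 36016121 to 39008647 in IRE1PKO and from 35776219 to 39277435 in IRE1fl libraries. Liver Ern1 had 45.7, 36.6 and 44.2 CPM (counts scaled to a common library total) in IRE1PKO libraries, against 61.2, 49.3 and 60.7 CPM in IRE1fl libraries. Its log2 fold change was -0.44 (SE 0.11, adjusted p = 0.0357), which is no check of the labels if the gene was deleted outside the liver. Of 10 hepatocyte markers 9 were tested, Serpina1a and Tat fell and none rose. For scale, 3.86% of all tested genes fell and 5.68% rose at an adjusted p under 0.05. The log2 fold change was negative for 7 of the 9, with a median of -0.25, and the part of this in the complement values was not tested. The summed level of these markers, carried by Alb, was 80379 to 99638 CPM in IRE1PKO and 87981 to 102828 CPM in IRE1fl libraries. In bulk tissue, fewer cells of a type and less RNA per cell cannot be told apart.

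The complement transcripts that passed the test were lower in IRE1PKO livers, with Cd55 as the exception. Of the 32 genes, 11 fell and 1 rose at an adjusted p under 0.05 in edgeR's quasi-likelihood test, and the other 20 did not pass. Among all tested genes 5.68% rose (849), 3.86% fell (577) and 9.54% changed in either direction (1426). With library totals as the only scaling, 1148 of all genes rose and 412 fell. The log2 fold change was negative for 23 and positive for 9 of the 32, and its median was -0.35, against -0.00 for all tested genes. The libraries of the genotypes did not overlap for 22 of the 32, against 31.0% of all tested genes. Together the 32 genes took 1.57%, 1.59% and 1.69% of all counts in IRE1PKO libraries, against 2.10%, 1.95% and 2.37% in IRE1fl libraries. C3 alone held 25.6% to 27.9% of these complement counts in IRE1PKO and 26.3% to 31.1% in IRE1fl libraries.

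**Figure D1:**
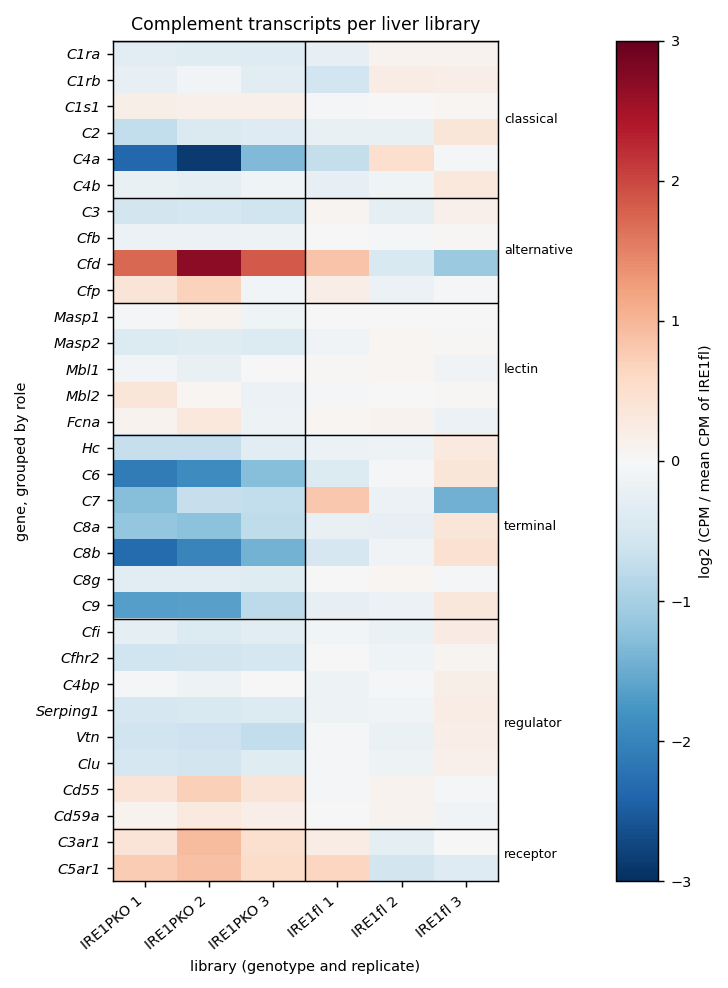
Heat map of log2 (CPM divided by the IRE1fl mean CPM) for 32 complement genes in rows, grouped by role, and 6 libraries in columns, IRE1PKO on the left. The darkest blue cells of the IRE1PKO columns belong to C4a, C8b, C6 and C9, and the darkest red ones to Cfd.

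The roles differed in their counts and medians. Of 7 terminal genes 5 fell (median -1.04), of 8 regulators 4 fell and 1 rose (median -0.40), and of 4 alternative pathway genes, C3 included, 1 fell (median 0.10). Of 5 lectin pathway genes 1 fell (median -0.02). The lectin median was 0.05 when scaled by library totals alone and 0.02 without IRE1PKO replicate 3, and the alternative pathway median was 0.00 without IRE1PKO replicate 2 and 0.19 without IRE1PKO replicate 3. None of 6 classical pathway genes passed in edgeR (median -0.29), although 3 had an unadjusted p under 0.05, all lower, and DESeq2 called 3 and limma-voom 1 of them lower. Neither receptor gene passed in edgeR, DESeq2 or limma-voom, while both had an unadjusted p under 0.05 and a positive value (median 0.68). These medians come from 2 to 8 genes each, and the difference between roles was not tested.

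**Figure D2:**
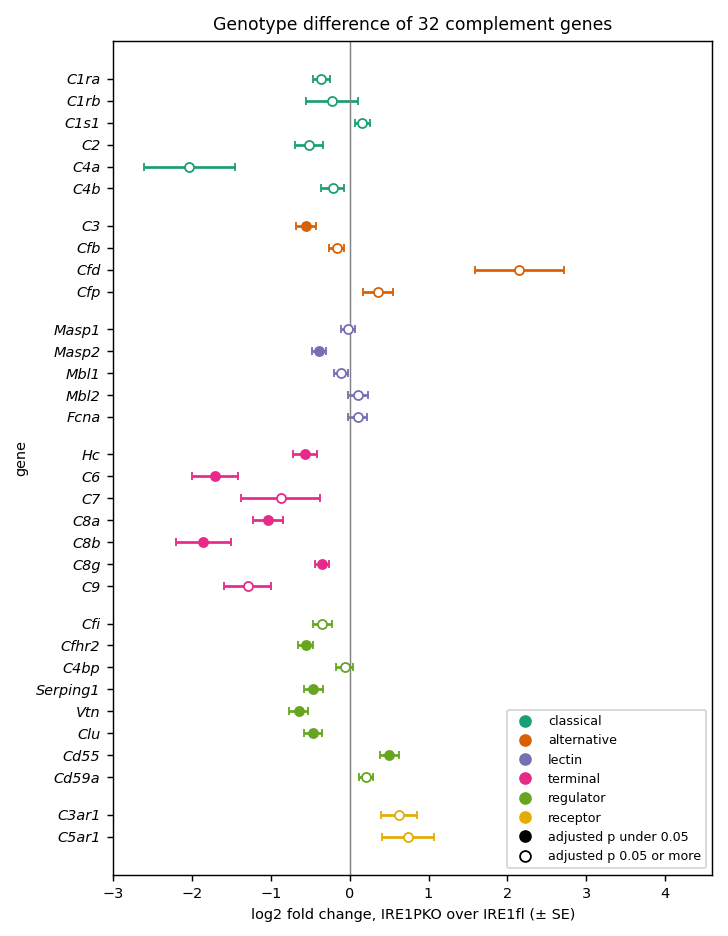
Log2 fold change of IRE1PKO over IRE1fl with its SE (x axis) for 32 complement genes (y axis) by role, from 3 libraries per genotype. Filled points passed an adjusted p of 0.05, and all 7 terminal genes lie left of 0, from -1.86 for C8b to -0.35 for C8g.

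The terminal pathway had the lowest median of the 6 roles. Of its 7 genes, Hc, C6, C8a, C8b and C8g fell, C9 missed the threshold narrowly and C7 was barely detected. In Hc, C6, C8a, C8b and C9 alike, IRE1PKO replicate 3 was the highest of its genotype and IRE1fl replicate 3 the highest of all 6 libraries. These calls depended on which libraries were kept. Without IRE1PKO replicate 1 none of the 7 was called, and without IRE1PKO replicate 2 or IRE1fl replicate 2 only 1. Without IRE1fl replicate 3 only 3 were called, although no value changed sign. Lower calls among all tested genes also dropped, from 577 to 255 without IRE1PKO replicate 1 and 331 without IRE1PKO replicate 2. They were 343 without IRE1fl replicate 2, 317 without IRE1fl replicate 3, 545 without IRE1PKO replicate 3 and 616 without IRE1fl replicate 1. With library totals as the only scaling, or with no filter on low counts, 3 terminal genes were called.

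**Figure D3:**
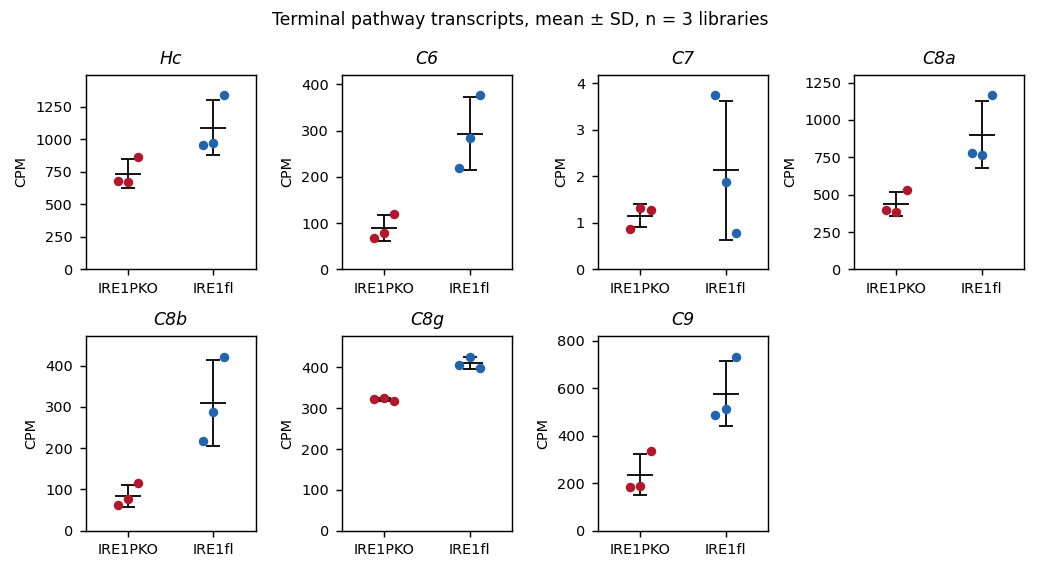
CPM of the 7 terminal pathway genes in each library (points), with mean and SD of 3 libraries (black), IRE1PKO left and IRE1fl right in each panel, every y axis starting at 0. The genotypes do not overlap in 6 panels, and C7 overlaps at a level below 4 CPM.

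C8b, which encodes the C8 beta chain that docks C8 onto the growing complex, had the lowest terminal value. It had 62.6, 77.8 and 115 CPM in IRE1PKO livers, against 216, 288 and 422 CPM in IRE1fl livers. Every IRE1PKO library lay below every IRE1fl library, and the log2 fold change was -1.86 (SE 0.35, adjusted p = 0.0356). C6, which binds C5b to begin pore assembly, had 68.6, 79.5 and 120.2 CPM in IRE1PKO livers, against 219, 284 and 376 CPM in IRE1fl livers. Its log2 fold change was -1.71 (SE 0.29, adjusted p = 0.0217), again with no overlap. C8a, the C8 alpha chain that inserts into the membrane, had 401, 384 and 531 CPM in IRE1PKO livers, against 777, 766 and 1164 CPM in IRE1fl livers. C8a fell by 1.04 on the log2 scale (SE 0.19, adjusted p = 0.0123) and lost its call in 1 of 13 alternative settings, without IRE1PKO replicate 1 (adjusted p = 0.0646).

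C9, the protein that polymerises into the ring of the pore, had 185, 187 and 335 CPM in IRE1PKO livers, against 486, 514 and 733 CPM in IRE1fl livers. The genotypes did not overlap, yet the spread between libraries was wide and the log2 fold change of -1.29 (SE 0.30) had an adjusted p of 0.0511. It passed in 6 of 13 alternative settings, DESeq2 (adjusted p = 0.00443) and limma-voom (0.00949) among them, and its value without IRE1PKO replicate 3 was -1.64. Hc, the mouse gene of C5, had 677, 670.2 and 861 CPM in IRE1PKO livers, against 959, 975 and 1337 CPM in IRE1fl livers. Hc fell by 0.57 in log2 units (SE 0.15, adjusted p = 0.0423), a smaller value than those of C6, C8a and C8b. C8g, a lipocalin bound to the C8 alpha chain, had 322, 325 and 318 CPM in IRE1PKO livers, against 406, 426 and 399 CPM in IRE1fl livers. The libraries of each genotype lay close together, and C8g had a log2 fold change of -0.35 (SE 0.09, adjusted p = 0.0303). Leaving out any single library kept the value at -0.37 to -0.32 but ended the call (adjusted p of 0.0517 to 0.109). C7, which anchors the complex in the membrane, had 0.872, 1.33 and 1.27 CPM in IRE1PKO livers, against 3.74, 1.87 and 0.781 CPM in IRE1fl livers. The groups overlapped and C7 did not pass (log2 fold change -0.88, SE 0.50, adjusted p = 0.310). Its value was -0.20 without IRE1fl replicate 1 and -1.27 without IRE1fl replicate 3.

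The 3 chains of C8 circulate as 1 protein, and the ratios of their counts were compared within each library. For every 100 C8g counts there were 19.4, 24.0 and 36.2 C8b counts in IRE1PKO livers, against 53.3, 67.4 and 106 in IRE1fl livers. For every 100 C8a counts there were 15.6, 20.3 and 21.6 C8b counts in IRE1PKO livers, against 27.8, 37.6 and 36.2 in IRE1fl livers. Neither ratio overlapped between the genotypes. C8g relative to C8a ran the other way, at 80.3, 84.4 and 59.8 C8g counts per 100 C8a counts in IRE1PKO livers and 52.2, 55.7 and 34.2 in IRE1fl livers. C6 relative to C9 was 37.1, 42.5 and 35.8 counts per 100 in IRE1PKO livers and 45.1, 55.3 and 51.3 in IRE1fl livers. In each of these 4 ratios an exact two-sided permutation test of the log2 ratios gave p = 0.1, the smallest that 3 libraries against 3 allow, and 0.14 after Benjamini-Hochberg adjustment over 7 such ratios. The ratios do not depend on how the libraries were scaled.

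**Figure D4:**
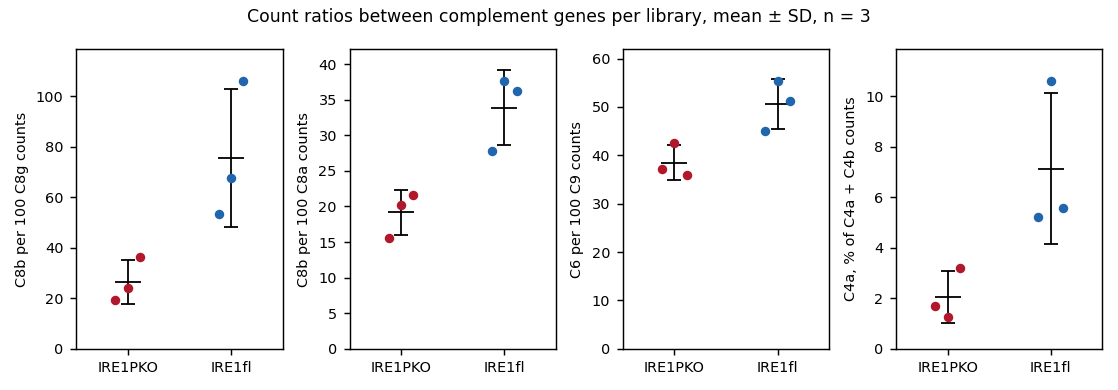
Count ratios in each library (points) with mean and SD of 3 libraries, IRE1PKO left and IRE1fl right, every y axis starting at 0. C8b per 100 C8g counts stays at or below 36.2 in IRE1PKO and starts at 53.3 in IRE1fl, and the C4a share stays at or below 3.20% in IRE1PKO and starts at 5.22% in IRE1fl.

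C8a and C8b are neighbours on chromosome 4, separated by 11130 bases, whereas C8g lies on chromosome 2. C8b spans chr4:104766317-104804548 on the plus strand and C8a chr4:104815679-104876398 on the minus strand, in the GENCODE vM21 annotation of GRCm38. C6 (chr15:4727175-4814967) and C7 (chr15:4988762-5063740) lie 173794 bases apart, and C9 (chr15:6445327-6498751) lies 1381586 bases beyond C7. Promoter sequences are shown for C8b, the terminal gene with the lowest value, and for C3, the component that all activation routes share. Both genes were called, and both windows lie outside the gene in the GENCODE and the RefSeq annotation. The sequences come from RefSeq (GRCm38.p6), cover 250 bases each and end just before the start site, with capitals marking a match to a motif named after them.
C8b, chr4:104766067-104766316, plus strand: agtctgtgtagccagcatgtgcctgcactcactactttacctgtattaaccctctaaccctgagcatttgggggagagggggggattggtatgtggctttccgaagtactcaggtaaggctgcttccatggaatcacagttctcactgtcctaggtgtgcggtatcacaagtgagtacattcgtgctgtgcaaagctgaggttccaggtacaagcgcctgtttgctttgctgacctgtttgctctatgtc
C3, chr17:57228137-57228386, minus strand: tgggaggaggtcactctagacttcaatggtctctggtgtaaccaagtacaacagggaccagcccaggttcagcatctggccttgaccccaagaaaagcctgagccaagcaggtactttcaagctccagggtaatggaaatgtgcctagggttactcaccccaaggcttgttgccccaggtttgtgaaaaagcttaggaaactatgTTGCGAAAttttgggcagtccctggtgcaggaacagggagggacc

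Promoter entries were found for 24 of the 32 genes, and 20 of their 26 windows lie partly or wholly inside the gene in 1 annotation or both, since a gene can have several start sites. The searches used TTCNNNGAA, the letters bound by STAT factors, TTGCNNAA, a C/EBP motif, TGTTTAC, a forkhead motif, TGACGTGG, an XBP1 motif, all on both strands, and TATAAA on the transcribed strand. C3 held a C/EBP match at position -45, counted from the start site. No match lay in the window printed for C8b. The STAT letters were found in 4 of the 24 genes (C7, C8a, C1rb and Masp2) and in 7.02% of 32851 mouse promoter windows of the same length. The C/EBP letters were found in C1rb, C1s1, C3 and C9 and in 9.56% of windows. TATAAA was found in C3ar1 at position -235, Hc at -239 and Vtn at -135, and in 7.59% of windows. The whole Hc window lies inside the gene in the RefSeq annotation. The forkhead and XBP1 letters, present in 3.17% and 0.563% of all windows, were in none of the 24. The window shown for C3 held 1 match, so none overlapped another.

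C3, the protein on which all 3 activation routes meet, was among the most abundant transcripts per length. It had 822 ± 19.5 CPM per kilobase of exon in IRE1PKO and 1210.0 ± 176 in IRE1fl livers (SD, n = 3 each), next to 816 ± 46.3 and 1280.2 ± 182 for Vtn. In CPM, C3 stood at 4243, 4317 and 4119 in IRE1PKO livers, against 6547, 5202 and 6921 in IRE1fl livers. C3 fell by 0.56 on the log2 scale (SE 0.13, adjusted p = 0.0197), and the narrow range of the IRE1PKO libraries contrasts with the wider one in IRE1fl. The C3 call was lost without any 1 IRE1PKO library or without IRE1fl replicate 3 (adjusted p of 0.0510 to 0.0809).

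Cfb, the catalytic subunit of the alternative C3 convertase, had 1036, 1042 and 1056 CPM in IRE1PKO livers, against 1164, 1139 and 1202 CPM in IRE1fl livers. The groups did not overlap, but the log2 fold change of -0.16 (SE 0.09) did not pass (adjusted p = 0.321). Cfd, or adipsin, the protease that cleaves factor B, had 7.83, 15.4 and 8.55 CPM in IRE1PKO livers, against 4.32, 1.73 and 1.10 CPM in IRE1fl livers. Its log2 fold change of 2.15 (SE 0.57) was the highest among the 32 genes and did not pass in edgeR (adjusted p = 0.0787), while DESeq2 (0.00903) and limma-voom (0.0162) called it. Without IRE1fl replicate 1 the edgeR value was 2.90 (adjusted p = 0.00334). Cfd is best known as a product of fat cells, whose markers were therefore read alongside. Of 9 adipocyte markers, Lep had no count in any library, and Adipoq, Plin1, Retn and Adig stayed at or below 0.369 CPM in all libraries. The summed adipocyte list was 3946 to 4628 CPM in IRE1PKO and 3989 to 5075 CPM in IRE1fl libraries, almost all of it from Car3 and Pck1, which hepatocytes express. Cidea, a lipid droplet protein on this list, rose (adjusted p = 0.0247), with 19.4, 6.84 and 31.1 CPM in IRE1PKO livers, against 0.0554, 0.284 and 0 CPM in IRE1fl livers, and Pck1 fell. The part of these cells or markers in the Cfd value was not tested. Cfp, or properdin, which stabilises the alternative convertase and is made by leukocytes, had 36.3, 45.1 and 26.2 CPM in IRE1PKO livers, against 31.8, 24.9 and 27.1 CPM in IRE1fl livers. The groups overlapped and Cfp did not pass (log2 fold change 0.36, SE 0.19, adjusted p = 0.294).

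Among the classical pathway genes, C4a had the lowest value and C4b, the main C4 gene, a small one. C4a, known in mice as sex-limited protein and listed by RefSeq (GRCm38.p6) as a transcribed pseudogene, had 27.4, 19.2 and 56.2 CPM in IRE1PKO livers, against 85.9, 201 and 135 CPM in IRE1fl livers. Every IRE1PKO library was below every IRE1fl library, but C4a did not pass in edgeR (log2 fold change -2.04, SE 0.58, adjusted p = 0.120). DESeq2 (0.00588) and limma-voom (0.0107) called it. C4b had 1576, 1507 and 1701 CPM in IRE1PKO livers, against 1558, 1696 and 2294 CPM in IRE1fl livers. Its groups overlapped and its log2 fold change was -0.21 (SE 0.14, adjusted p = 0.392).

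C4a and C4b are near copies on chromosome 17, at chr17:34809092-34823464 and chr17:34728380-34743882. Of all 50-base stretches in the C4a transcripts, 30.6% also occur in those of C4b, so part of the reads could belong to either gene. The C4a share of the counts of both genes was 1.71%, 1.26% and 3.20% in IRE1PKO livers, against 5.22%, 10.6% and 5.57% in IRE1fl livers (exact two-sided permutation p = 0.1 and 0.14 adjusted, as for the C8 ratios). With both genes summed the log2 fold change was -0.29 (SE 0.14, adjusted p = 0.236).

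C1ra and C1s1 encode the proteases of the C1 complex and lie 6901 bases apart on chromosome 6. C1ra had 206, 202 and 199 CPM in IRE1PKO livers, against 220.2, 281 and 277 CPM in IRE1fl livers, with a log2 fold change of -0.36 (SE 0.11, adjusted p = 0.0606). C1s1 had 632, 614 and 619.8 CPM in IRE1PKO livers, against 531, 554 and 583 CPM in IRE1fl livers. Its log2 fold change was 0.16 (SE 0.09, adjusted p = 0.311), so the partners differed in sign and neither passed, although the groups of each did not overlap. C1rb, a near copy that shares 59.2% of its 50-base stretches with C1ra, took 0.549% to 0.655% of the counts of the pair in IRE1PKO and 0.426% to 0.582% in IRE1fl libraries. C1rb stood at 1.18, 1.33 and 1.10 CPM in IRE1PKO livers and 0.941, 1.64 and 1.62 CPM in IRE1fl livers, with overlapping groups (adjusted p = 0.729). Summing each near-identical pair left the log2 fold changes at -0.36 for C1ra with C1rb and 0.16 for C1s1 with C1s2. C2, which supplies the protease of the classical C3 convertase, had 74.5, 91.9 and 95.5 CPM in IRE1PKO livers, against 107, 107 and 161 CPM in IRE1fl livers. Its groups did not overlap, and the log2 fold change was -0.52 (SE 0.17, adjusted p = 0.109). C2 and Cfb lie 85 bases apart, and a joined transcript annotated as Gm20547 covers 42.8% of the exon bases of C2 and 79.5% of those of Cfb, so the reads of the 2 genes may not be fully separate.

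Masp2 was the lectin pathway gene that passed. Masp2, the protease that cleaves C4 and C2, had 149.7, 154 and 148 CPM in IRE1PKO livers, against 184, 207 and 202 CPM in IRE1fl livers. Masp2 fell by 0.39 in log2 units (SE 0.09, adjusted p = 0.0169) with no overlap between the genotypes. The Masp2 call was lost in 4 of the 6 settings that left out a library, with an adjusted p of up to 0.0740. Tardbp, on the other strand, overlaps 54.9% of the annotated exon bases of Masp2, and whether strand was used in counting is not given in the sources used here. Masp1, a protease of the same complex, had 107, 119.6 and 103 CPM in IRE1PKO livers, against 112, 111 and 113 CPM in IRE1fl livers (log2 fold change -0.02, SE 0.09, adjusted p = 0.895). The mannose-binding lectins Mbl1 and Mbl2 and the ficolin Fcna, which recognise sugars on microbes, had log2 fold changes of -0.11, 0.11 and 0.10 with SE of 0.09 to 0.13. The groups of all 3 overlapped, and Masp1, Mbl2 and Fcna changed sign in 2, 1 and 1 of 13 alternative settings. Mbl2 was highest in IRE1PKO replicate 1, at 449.5 CPM, where the other 5 libraries held 312 to 366 CPM.

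Of 6 soluble regulators 4 fell. Vtn, or vitronectin, which binds terminal complexes and keeps them from inserting, had 1724, 1698 and 1549.8 CPM in IRE1PKO livers, against 2511, 2281 and 3005 CPM in IRE1fl livers. Vtn fell by 0.65 in log2 units (SE 0.12, adjusted p = 0.00823). Cfhr2, a relative of factor H, had 245, 251 and 256 CPM in IRE1PKO livers, against 373, 339 and 393 CPM in IRE1fl livers. Cfhr2 fell by 0.56 on the log2 scale (SE 0.09, adjusted p = 0.00434). These 2 genes were the only ones of the 12 called that passed in all 13 alternative settings.

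Clu, or clusterin, which also holds terminal complexes in solution, had 1375, 1326 and 1496 CPM in IRE1PKO livers, against 1903, 1756 and 2153 CPM in IRE1fl livers (log2 fold change -0.47, SE 0.11, adjusted p = 0.0253). Serping1, the C1 inhibitor, had 631, 649 and 668 CPM in IRE1PKO livers, against 807, 826 and 1048 CPM in IRE1fl livers (log2 fold change -0.46, SE 0.12, adjusted p = 0.0325). Both fell without overlap, and the Clu call was lost in 3 and the Serping1 call in 5 of the 6 settings that left out a library. Cfi, the protease that cleaves C3b and C4b, had 614, 556 and 582 CPM in IRE1PKO livers, against 705, 643 and 879.5 CPM in IRE1fl livers. Its groups did not overlap, but its log2 fold change of -0.35 (SE 0.12) did not pass (adjusted p = 0.106). C4bp, a cofactor of factor I on C4b, had 567, 519 and 576 CPM in IRE1PKO livers, against 524, 561 and 649 CPM in IRE1fl livers, with overlapping groups (log2 fold change -0.06, SE 0.11, adjusted p = 0.770).

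The regulators anchored in cell membranes were higher in IRE1PKO livers or did not pass. Cd55, or decay-accelerating factor, which breaks up C3 convertases on the cell surface, had 16.6, 20.7 and 16.6 CPM in IRE1PKO livers, against 12.2, 13.7 and 12.2 CPM in IRE1fl livers. Cd55 rose by 0.50 on the log2 scale (SE 0.12, adjusted p = 0.0277), the single rise among the 32 genes. Its call was lost in 4 of the 6 settings that left out a library (adjusted p of 0.0552 to 0.117), and without IRE1PKO replicate 2 its value was 0.39. Cd59a, which stops C9 from joining the pore, had 69.9, 79.7 and 74.3 CPM in IRE1PKO livers, against 64.9, 69.1 and 60.0 CPM in IRE1fl livers. The groups did not overlap and the log2 fold change of 0.21 (SE 0.09) did not pass (adjusted p = 0.181). Cd55 is made by many cell types. Of 8 sinusoidal endothelial markers 4 rose and none fell in edgeR, with a summed level of 283 to 380.0 CPM in IRE1PKO and 240.2 to 262 CPM in IRE1fl libraries. Of 9 tested stellate cell and fibroblast markers, out of 10, 6 rose and none fell, with a summed level of 392 to 419 CPM in IRE1PKO and 211 to 244 CPM in IRE1fl libraries. For comparison, 5.68% of all tested genes rose and 3.86% fell. The T and NK cell, B cell and cholangiocyte lists had negative medians (-0.47, -0.11 and -0.21). Of their 8, 5 and 6 tested markers 1 each fell, and 1 cholangiocyte marker rose. The 6 tested mesothelial markers had a median of 0.61, and none passed. The part of these cells in the Cd55 result was not tested.

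**Figure D5:**
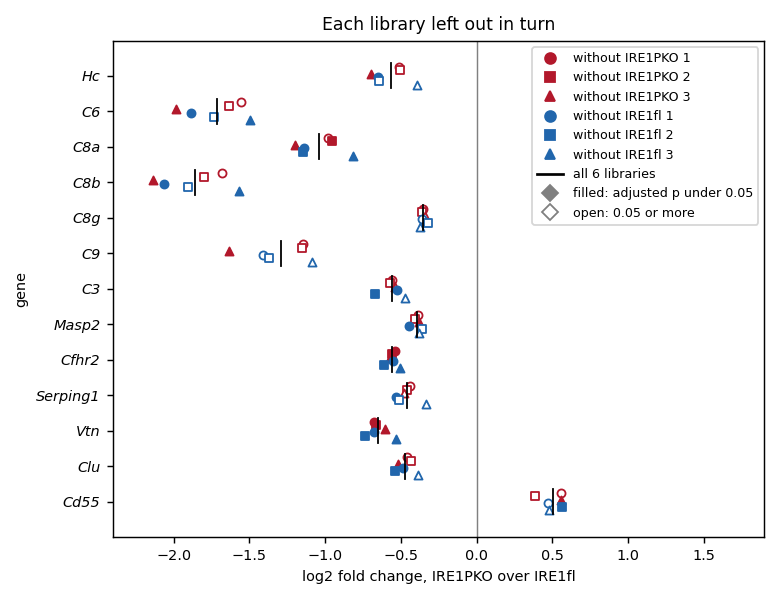
Log2 fold change of IRE1PKO over IRE1fl (x axis) for C9 and the 12 called complement genes (y axis) with each library left out in turn, coloured by the genotype of that library. Filled points passed an adjusted p of 0.05, black lines give the value with all 6 libraries, and no point crosses 0.

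The receptors for the C3 and C5 fragments, carried by macrophages and neutrophils, were low in whole liver. C3ar1 had 3.72, 5.45 and 3.93 CPM in IRE1PKO livers, against 3.32, 2.33 and 2.86 CPM in IRE1fl livers. C5ar1 had 2.62, 2.85 and 2.27 CPM in IRE1PKO livers, against 2.41, 1.05 and 1.19 CPM in IRE1fl livers. The log2 fold changes were 0.62 (SE 0.23, adjusted p = 0.116) and 0.73 (SE 0.33, adjusted p = 0.192), and IRE1fl replicate 1 was the highest of its genotype for both. Without that library C5ar1 passed (log2 fold change 1.20, adjusted p = 0.0292). Of 10 recruited macrophage markers 2 rose and none fell, and their summed level was 91.6 to 104 CPM in IRE1PKO and 49.7 to 59.4 CPM in IRE1fl libraries. Much of this sum came from Spp1, also listed as a cholangiocyte marker. Spp1 had 34.9 to 43.9 CPM in IRE1PKO and 19.4 to 25.3 CPM in IRE1fl libraries. Of 9 Kupffer cell markers 1 rose and 1 fell, at 398 to 558 CPM in IRE1PKO and 335 to 451 CPM in IRE1fl libraries. Of 9 neutrophil markers 3 were tested and none passed, at 4.08 to 5.86 CPM in IRE1PKO and 3.96 to 12.4 CPM in IRE1fl libraries. As a background to these counts, 5.68% of all tested genes rose and 3.86% fell. The part of these cells in the receptor values was not tested.

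Of 30 further complement genes on a list of recognition molecules, regulators and receptors, 26 were tested, 2 fell and 1 rose. This is 11.5% called, near the 9.54% among all 14954 tested genes. DESeq2 called 3 of the 26 lower and 4 higher, and among all genes 890 lower and 1182 higher. The median log2 fold change of the 26 was 0.19. Cpn2, the large subunit of the carboxypeptidase that inactivates C3a and C5a, fell by 0.64 (SE 0.10, adjusted p = 0.00372), with 325 ± 6.08 CPM in IRE1PKO and 505 ± 57.4 CPM in IRE1fl livers (SD, n = 3 each). Its partner subunit Cpn1, named after its value was seen, did not pass (log2 fold change 0.13, adjusted p = 0.570). Cd93, a membrane protein of endothelium formerly named a C1q receptor, rose by 1.02 (SE 0.20, adjusted p = 0.0101), with 8.49 ± 1.36 CPM in IRE1PKO and 4.18 ± 0.988 CPM in IRE1fl livers. Cpn2 and Cd93 passed in all 13 alternative settings. The 3 C1q genes, which macrophages express, had log2 fold changes of 0.08 (C1qa), 0.25 (C1qb) and 0.27 (C1qc), and none passed in any of the 13 settings. Susd4, a membrane regulator of C3 convertases also named after its value was seen, had the lowest value of this list at -2.21 (SE 0.54, adjusted p = 0.0835).

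Lists of coagulation and acute phase genes gave a scale for these counts. They were not limited to genes of hepatocytes, and their medians describe these lists only. Of 24 coagulation genes 8 fell and none rose, with a median log2 fold change of -0.21. The value was negative for 19 and positive for 5 of them. F8, Vwf, Tfpi and Thbd were among the positive ones, at 0.25, 0.54, 0.52 and 0.52. Of 26 acute phase genes 1 fell and 2 rose, with a median of 0.06. The value was negative for 11 and positive for 15 of them. The fibrinogen genes Fga, Fgb and Fgg were counted on this list, at -0.43, -0.44 and -0.41. Complement, with 11 of 32 lower and a median of -0.35, stood below both in its median. The share called in either direction was 37.5% for complement, 33.3% for coagulation and 11.5% for acute phase genes, against 9.54% of all tested genes. By role, the terminal (-1.04), regulator (-0.40) and classical (-0.29) medians lay below that of coagulation. The lectin (-0.02), alternative (0.10) and receptor (0.68) medians lay above it. A difference between the lists was not tested. With each library left out in turn, between 2 and 11 of the 32 were called lower and between 0 and 2 higher.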

How the data were processed

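The authors deposited a table of whole-number counts per gene symbol for the 6 liver libraries, not normalized. Among the lowest counts, even values were 2.58 to 3.19 times as frequent as odd ones in every library. The cause was not tested, and counts of weakly expressed genes may not all be independent. Reads were placed on mm10, a build named in the submitters' processing notes. The aligner, counting tool, annotation or strand setting is not given in the sources used here. Among the deposited gene names, 27 read as dates.

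Genes were filtered with filterByExpr, scaled by TMM and tested with edgeR 4.0.16 (robust quasi-likelihood F test on genotype alone, R 4.3.3), and p-values were adjusted by Benjamini-Hochberg over 14954 genes, with 0.05 as the threshold. CPM values are counts divided by TMM-scaled library totals, brought to a common total. The SE of a log2 fold change was derived from the F statistic. CPM per kilobase used the merged exon length of GENCODE vM21. The script was tested on simulated data with known changes. Among 14954 genes, 67 were changed 1.5-fold, 67 were changed 2-fold and 66 were changed 4-fold. It recovered 28.4% of 1.5-fold, 61.2% of 2-fold and 89.4% of 4-fold changes. The real data gave 1426 calls, so these rates may not carry over to them. Of its 132 calls, 13 fell on genes with no change, and 4 genes were called where no gene was changed. Alternatives were DESeq2 1.42.0, limma-voom (limma 3.58.1), other scalings and filters, a replicate block and leaving out each library.

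All 32 genes are described, and further genes were named where they were called on the list of other complement genes, with the C1q genes added; 1 such gene is not reported here. The members and gene lists were chosen with earlier results of these data known. Promoter windows and the class of C4a come from RefSeq (GRCm38.p6).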

Additional observations from a re-analysis of the deposited data

How the results depend on the processing

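No complement gene that passed in edgeR changed sign in any of 13 alternative settings. Some genes that were not called did: with library totals only, the log2 fold change was 0.046 for Masp1 and 0.012 for C4bp. Leaving out 1 library moved it between -0.090 and 0.023 for Masp1, -0.043 and 0.22 for Mbl2, -0.019 and 0.21 for Fcna, -0.13 and 0.029 for C4bp, and -0.10 and 0.26 for C1qa. DESeq2 called 1182 of all genes higher and 890 lower, and limma-voom called 801 higher and 577 lower. Of the 32 complement genes DESeq2 called 16 lower and 2 higher, and limma-voom 13 lower and 2 higher. Of the further complement genes DESeq2 called 3 lower and 4 higher, and limma-voom 3 lower and 1 higher. With library totals as the only scaling, or with no filter on low counts, 3 terminal genes were lower and 3 further complement genes higher. Leaving out 1 library at a time gave 2 to 11 complement genes lower and 0 to 2 higher, 0 to 5 terminal genes lower and none higher, 398 to 867 of all genes higher and 255 to 616 lower, and 1 to 3 further complement genes higher and 2 to 3 lower. The fewest calls came without IRE1PKO replicate 1. Same-numbered libraries deviated from their group means with correlations of 0.102, -0.026 and 0.155, and differently numbered ones with -0.161 to 0.055. No pairing was assumed in the main test, and these values do not decide whether the numbers pair the libraries. With a replicate block 14 complement genes were lower and 1 higher, 6 terminal genes were lower, and of all genes 1051 were higher and 814 lower. Of the single-gene values, 427 kept direction and side of the threshold, 8 changed sign, 41 lost and 21 gained a call. The median of the 32 genes was -0.28 with library totals only and -0.25 without IRE1fl replicate 3. At this depth 3 counts equal 0.0733 to 0.0851 CPM. The cause of these changes was not tested.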
